A study of Mus musculus with 2 samples.

Results

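The genes described here are 10 parts of the NF-kB system. They are the subunit genes Nfkb1, Nfkb2 and Relb, the cytoplasmic inhibitor genes Nfkbia and Nfkbie, the nuclear inhibitor-like genes Nfkbid, Nfkbiz and Bcl3, the ubiquitin-editing enzyme gene Tnfaip3, and the kinase gene Ikbke. They were chosen by symbol, each symbol matched 1 row, and they are 10 of the 32285 genes counted. The data are droplet single-cell RNA counts of mouse tumours, dissociated with enzymes and enriched for CD45, the surface protein common to leukocytes. There were 2 groups with 1 library each, one labelled control and one given motolimod, an agonist of the endosomal receptor TLR8. Whether it activated TLR8 in these mouse cells was not measured. The labels give 5 mice per group, but not whether cells of these mice were pooled, and they give no tumour model, strain, age, dose, vehicle or time. With 1 library per group no difference below was tested, and every interval is a 95% interval that covers counting error only.

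NF-kB proteins are dimeric transcription factors that inhibitors of the IkB family hold in the cytoplasm. Toll-like receptors, TNF receptors and the IL-1 receptor activate a kinase complex that marks the inhibitors for degradation, and a slower non-canonical route processes the Nfkb2 product to release dimers with RelB. The freed dimers induce genes of their own inhibitors, so the RNA of Nfkbia, Tnfaip3 and the nuclear IkB proteins is widely used as a readout of the pathway in myeloid cells.

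After filters on genes (300 or more), UMIs (800 or more) and mitochondrial share (10% or less), the control library held 7484 barcodes and the motolimod library 9314. Their medians were 14055 and 3742.5 UMIs, so the libraries differed in depth, and 94 of these barcodes occurred in both. Cells were assigned by marker gates, and a class name below means that the cell passed that gate and no other, with these exceptions. Cells that passed both the T and NK cell gates were kept as T cells. The classical monocyte gate was not counted against neutrophils, T cells or NK cells. Some dendritic cells could also have passed the macrophage gate with a low score, if they had UMIs of both Xcr1 and Clec9a. The control and motolimod libraries held 503 and 2660 neutrophils, 4426 and 4376 monocytes and macrophages (called macrophages below), 317 and 126 dendritic cells, and 342 and 422 T cells. Apart from those exceptions, barcodes that passed at least 2 gates, 783 and 933, were set aside, as were 290 and 637 that passed none. The 10 neutrophil markers summed to 75926 and 72036 UMIs per 1000000 UMIs (CPM) in neutrophils and to between 264 and 722 CPM in the other 3 lineages. The 10 macrophage markers summed to 17391 and 14050 CPM in macrophages and to 790.5 and 692 CPM in neutrophils. Epithelial cells made up 9.95% and 0.805% of the barcodes, where the labels give a purity above 95% after the CD45 selection.

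In mm10 the members, all annotated as protein coding, lie as follows. Nfkb1 spans chr3:135584655-135691547, Nfkb2 chr19:46304320-46312385, Relb chr7:19606217-19629438, Nfkbia chr12:55489410-55492647 and Nfkbie chr17:45555703-45563169. Nfkbid spans chr7:30421732-30428746, Nfkbiz chr16:55811375-55838899, Bcl3 chr7:19808462-19822770, Tnfaip3 chr10:19000910-19015657 and Ikbke chr1:131254343-131279606.

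Promoters are shown because feedback members are known targets of the factors they restrain. RefSeq promoters of build GRCm38.p6 matched 7 of the 10 members and 12 of their starts (not Nfkb1, Relb and Nfkbiz). The 250 bases before each start were searched on both strands for the NF-kB kappa-B consensus of 10 bases, overlapping matches included. Of the 7 genes, 5 held a match (Nfkb2, Nfkbia, Nfkbie, Nfkbid and Tnfaip3) and 2 held none (Bcl3 and Ikbke). Of all 32851 promoters searched in the same way 3.90% held a match, and of all 27025 genes 4.46% did. A match describes letters and is not a measured binding site.

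The promoters of Nfkbia (chr12:55492648-55492897, minus strand) and Nfkbie (chr17:45555450-45555699, plus strand) are given whole, 5′ to 3′, with the match in capitals. The match lies 20 bases before the start in Nfkbia, on the minus strand of the promoter, and 97 bases before it in Nfkbie.
Nfkbia: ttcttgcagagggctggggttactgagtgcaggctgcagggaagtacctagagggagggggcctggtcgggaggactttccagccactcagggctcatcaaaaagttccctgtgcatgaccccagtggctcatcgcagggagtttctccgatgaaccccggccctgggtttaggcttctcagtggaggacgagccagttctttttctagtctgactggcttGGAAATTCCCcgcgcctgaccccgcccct
Nfkbie: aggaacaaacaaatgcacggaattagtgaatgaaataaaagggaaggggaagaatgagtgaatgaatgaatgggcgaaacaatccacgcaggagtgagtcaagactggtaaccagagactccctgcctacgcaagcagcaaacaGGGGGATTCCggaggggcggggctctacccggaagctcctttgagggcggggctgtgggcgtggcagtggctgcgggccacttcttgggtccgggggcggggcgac

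For Nfkb2, Nfkbid and Tnfaip3 the 29 or 30 bases around the matches of 1 promoter are given to show that each holds more than 1 match, again in capitals. In the distal Nfkb2 window matches on both strands overlap, so its capitals run past 10 bases. The windows are chr19:46304689-46304717 and chr19:46304716-46304745 for Nfkb2, chr7:30422170-30422199 and chr7:30422215-30422244 for Nfkbid (all plus strand), and chr10:19015516-19015545 and chr10:19015403-19015432 for Tnfaip3 (minus strand).
Nfkb2 distal: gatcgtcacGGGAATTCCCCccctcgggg
Nfkb2 proximal: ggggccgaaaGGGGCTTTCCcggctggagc
Nfkbid distal: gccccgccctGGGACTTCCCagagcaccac
Nfkbid proximal: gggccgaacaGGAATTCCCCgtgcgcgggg
Tnfaip3 distal: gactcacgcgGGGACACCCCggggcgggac
Tnfaip3 proximal: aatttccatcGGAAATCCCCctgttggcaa

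The first comparison asked in which cells each member was found. A level is the gene's share of all UMIs of a class in a library, in CPM. Levels come from tags at the 3′ end, are not scaled by length, and are compared within a gene only. Named classes with at least 50 cells in a library gave 31 profiles, 16 of them in the control library, with lineages entered by their subsets and the cells of no state or subset left out.

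The subunit genes of the non-canonical route were highest in migratory dendritic cells, not in dendritic cells as a whole. Relb, whose protein pairs with the processed Nfkb2 product, was at 445 CPM (406 to 487) in the 106 control migratory dendritic cells, which carry antigen to lymph nodes. The next control class was cDC2, conventional dendritic cells that mainly stimulate CD4 T cells, at 43.7 CPM (33.6 to 55.8), and the intervals do not overlap. Nfkb2, the precursor gene, was at 248 CPM (219 to 279.7) in the migratory cells and at 92.8 CPM (81.2 to 106) in the next class, CD8 T cells. In control cDC2 Nfkb2 was at 51.2 CPM. In control cDC1, another conventional subset, Nfkb2 was at 41.9 CPM and Relb at 39.1 CPM. These levels lay among those of the other classes. The 29 motolimod migratory dendritic cells, under the minimum of 50, had 609.7 CPM of Relb and 256 CPM of Nfkb2.

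Nfkb1, the precursor gene of a canonical subunit, was less uneven. It was at 255 CPM (225 to 287) in control migratory dendritic cells, 185 CPM (130.4 to 255) in gamma-delta T cells and 164 CPM (144 to 186) in cDC2, and neighbours in that order overlap. In the motolimod library cDC2 had 196 CPM (170.4 to 225) and gamma-delta T cells 191 CPM (143 to 250.3). The lowest level of the control library was 48.0 CPM, in epithelial cells, and that of the motolimod library 52.9 CPM, in Gpnmb Cd36 macrophages.

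Nfkbia, the inhibitor gene that is induced again after each canonical response, was highest in Ccl3/Ccl4-high neutrophils. Neutrophils were split by the sum of Ccl3 and Ccl4, chemokines that recruit other leukocytes, at 50 UMIs per 10000, and 49 control and 174 motolimod cells lay near that boundary. In the high cells Nfkbia was at 5933 CPM (control, 226 cells) and 5619 CPM (motolimod, 1993 cells). In the low cells it was at 2815 CPM and 3568 CPM, and in gamma-delta T cells at 3848 CPM, above the low control neutrophils, and 2018 CPM, below the low motolimod ones. The lowest control level was 268 CPM (245 to 294) in cDC1, the cross-presenting dendritic cells. Nfkbie, a related inhibitor gene, ran in the control library from 155 CPM (143 to 167) in classical monocytes to 16.5 CPM in epithelial cells.

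The nuclear members each had their own pattern. Nfkbid, whose product modulates NF-kB on DNA, was highest in gamma-delta T cells, at 761 CPM (645 to 892) without and 578 CPM (492 to 674) with motolimod. In epithelial cells it was at 0.748 CPM (0.474 to 1.12) and 3.54 CPM (1.93 to 5.94). Nfkbiz, whose product is a coactivator of secondary response genes, was highest in the Ccl3/Ccl4-high neutrophils, at 737 CPM (669.5 to 809) and 672 CPM (649 to 695), and lowest in control cDC1, at 32.8 CPM (24.9 to 42.5). Bcl3, whose product binds homodimers of the small subunits, was at 132 CPM (108 to 159) in control Ccl3/Ccl4-low neutrophils and 48.7 CPM (32.6 to 69.9) in the high ones.

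Tnfaip3, the gene of an enzyme that edits ubiquitin chains on signalling complexes, was highest in gamma-delta T cells. It was at 1441 CPM (1279.6 to 1618) over 74 cells without and 1310.4 CPM (1179 to 1452) over 75 cells with motolimod. The lowest control levels were 35.1 CPM (26.9 to 45.0) in cDC1 and 23.6 CPM in epithelial cells. Ikbke, a kinase gene of the interferon and NF-kB arms, was lowest in control migratory dendritic cells, where it had 1 UMI, or 0.926 CPM (0.0234 to 5.16). Among control classes it was highest in Cbr2 Tppp3 macrophages, at 56.1 CPM (43.0 to 71.9), and Lyve1 Cd209 macrophages, at 53.8 CPM (42.9 to 66.6), which overlap.

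**Figure D1:**
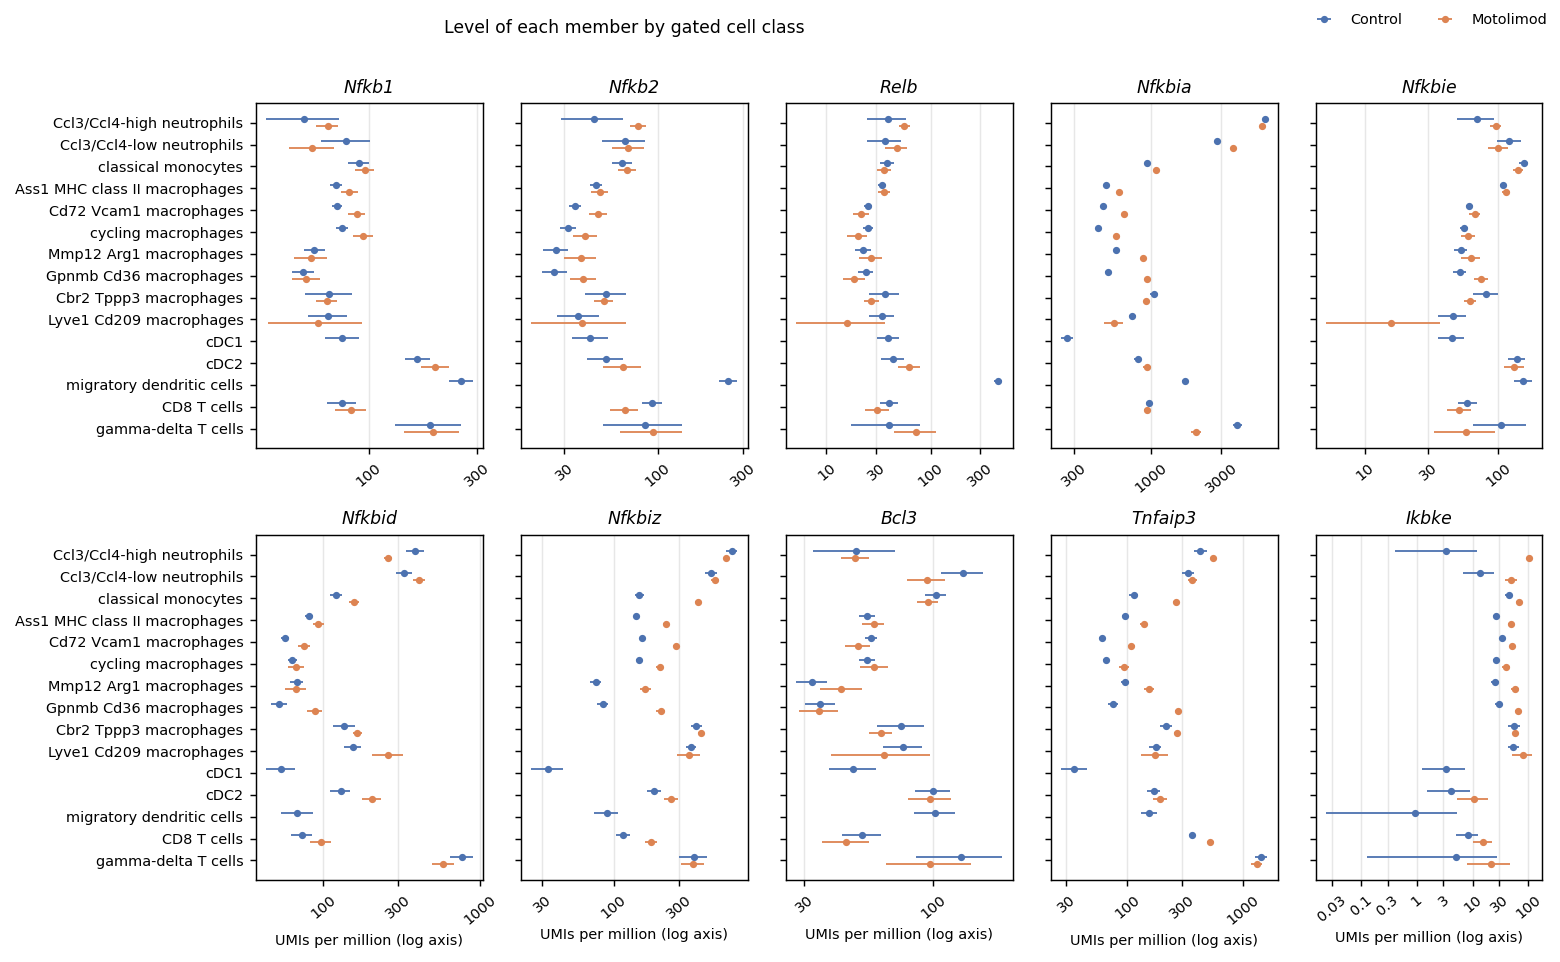
Level of each member in CPM (log axis, 1 panel per gene) in 15 gated immune classes, each library drawn where it has at least 50 cells, with exact Poisson 95% intervals, in the control and motolimod libraries. Relb and Nfkb2 stand apart in control migratory dendritic cells and Tnfaip3 in gamma-delta T cells, and Ikbke is lowest in control migratory dendritic cells, at 0.926 CPM.

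Across the 31 profiles some members ran in pairs. The Pearson correlation of log2(CPM + 10) was 0.86 for Nfkbid with Tnfaip3, 0.85 for Nfkb2 with Relb, and −0.41 for Relb with Ikbke. These values are descriptions, since profiles share libraries, depth and lineages. Among 7632 genes, those most like the mean of the members were Kdm6b (0.87), a histone demethylase gene, Rcsd1 (0.85), Birc3 (0.85), the gene of a ubiquitin ligase that inhibits apoptosis, Cdc42ep3 (0.84), Rnf114 (0.83), Helz2 (0.83), Samsn1 (0.82) and Tle3 (0.82).

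For single members the likest genes were Map3k14 (0.83), Ccnd2 and Ramp3 for Nfkb1, and Relb, Birc2 (0.85) and Stat3 for Nfkb2. Map3k14 encodes the kinase that starts the non-canonical route. Relb had Il4i1 (0.89), Ccl22 (0.86) and Nfkb2. Il4i1 and Ccl22 are among the markers of the migratory dendritic cell gate, so their likeness to Relb is in part built in by that gate. Nfkbia had Eif1 (0.92), Tgif1 and Pnrc1, and Nfkbie had Pde4b (0.82), Rel and Gpr132. Nfkbid had Lats2 (0.92), Itsn2 and Pim1, Nfkbiz had Gm20559 (0.81), Ddx58 and Kdm2a, and Bcl3 had Coq10b (0.78), Atrnl1 and Elmsan1. Tnfaip3 had Zc3hav1 (0.91), Ypel3 and Kmt2e, and Ikbke had BC005537 (0.92), Smim4 and Creg1.

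The second comparison set the motolimod library beside the control within each lineage. A member was counted as higher or lower at a 1.5-fold ratio of CPM, and the background is the share of all genes with a mean of at least 10 CPM that passed the same threshold. In macrophages 4 of 10 members were higher and none lower (background 8.35% higher and 5.24% lower). These were the cytoplasmic inhibitor gene Nfkbia, the nuclear inhibitor-like gene Nfkbiz, the ubiquitin-editing enzyme gene Tnfaip3 and the kinase gene Ikbke, not subunits. Tnfaip3 was at 82.3 CPM (80.1 to 84.5) in control macrophages and 186 CPM (181 to 190.3) in motolimod macrophages, a ratio of 2.26 (2.18 to 2.34). Nfkbiz was at 150.1 CPM and 299 CPM, a ratio of 1.99 (1.94 to 2.05). Ikbke was at 30.5 CPM and 55.6 CPM, a ratio of 1.82 (1.71 to 1.94), and Nfkbia at 529 CPM and 800.1 CPM, a ratio of 1.51 (1.49 to 1.54), which lay at the threshold and fell under it in 5 of 8 alternative settings (lowest 1.34).

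Nfkbid stood just under the threshold in macrophages, at 71.9 CPM and 107 CPM, a ratio of 1.48 (1.42 to 1.55). The subunit genes were closer to 1, with ratios of 1.09 (1.04 to 1.15) for Nfkb1, 1.29 (1.21 to 1.37) for Nfkb2 and 0.973 (0.899 to 1.05) for Relb. Nfkbie (1.12, 1.07 to 1.17) and Bcl3 (1.06) were also near 1. The 4 platelet markers, which include Pf4, summed to 552 CPM in control and 2313 CPM in motolimod macrophages, with Gp9 at 0 in the latter, and their part in these ratios was not tested. The median log2 ratio was 0.47 over the 10 members and 0.04 over all genes of the background.

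Thinning each cell to 1000 UMIs set the depths equal. The share of macrophages with a Tnfaip3 UMI was then 8.94% (8.11 to 9.82) in the control and 19.5% (18.3 to 20.7) in the motolimod library, against 51.6% and 55.4% before thinning. The Ikbke share was 3.69% and 6.58% thinned, against 32.4% and 30.5% unthinned, where the deeper control cells gave the higher share. The mean number of members with a UMI per thinned macrophage was 0.967 and 1.38.

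The macrophage states did not all show this. Cells were assigned to 8 states by marker scores, and 788 control and 546 motolimod macrophages lay near a boundary between states. In Gpnmb Cd36 macrophages, which carry lipid-handling genes, 5 of 10 members were higher (background 14.8% higher and 10.3% lower). There Tnfaip3 was at 75.5 CPM in the 369 control cells and 277 CPM in the 554 motolimod cells, a ratio of 3.67 (3.28 to 4.12). Nfkbiz had a ratio of 2.65 (2.37 to 2.97), Ikbke 2.25 (1.84 to 2.75), Nfkbia 1.85 (1.76 to 1.94) and Nfkbid 1.68 (1.44 to 1.98). Macrophages that met no state had 5 higher (background 17.8% higher and 15.4% lower), with Tnfaip3 at 3.18 (2.57 to 3.97). Mmp12 Arg1 macrophages had 4 (background 8.79% higher and 4.60% lower), led by Nfkbiz at 2.30 (2.01 to 2.63) and Ikbke at 2.26 (1.79 to 2.86).

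Classical monocytes, the blood-derived precursors of macrophages, had 3 members higher (background 11.5% higher and 9.66% lower). Nfkbiz was at 155 CPM in the 513 control cells and 413 CPM in the 724 motolimod cells, a ratio of 2.67 (2.44 to 2.93), and Tnfaip3 had a ratio of 2.32 (2.08 to 2.59). Nfkbia was at 933 CPM and 1085 CPM, a ratio of 1.16 (1.11 to 1.21). Cd72 Vcam1 macrophages had 3 members higher (background 5.31% higher and 2.45% lower), Ass1 MHC class II macrophages 2 (background 5.83% higher and 2.02% lower) and cycling macrophages 1 (background 5.62% higher and 2.44% lower). Ikbke was among them in each, at 1.56, 1.83 and 1.54.

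The Cbr2 Tppp3 macrophages had 0 of 10 members past the threshold in either direction (background 13.5% higher and 9.37% lower). Their ratios ran from 0.747 (0.523 to 1.09) for Relb to 1.24 (1.08 to 1.43) for Tnfaip3. Nfkbiz was at 404 CPM and 436 CPM there and Tnfaip3 at 217 CPM and 269 CPM, so the control levels were already above those of control macrophages as a whole. In the Lyve1 Cd209 macrophages (204 and 65 cells) 1 member was higher and 2 lower (background 21.0% higher and 14.7% lower). Nfkbid had a ratio of 1.68 (1.29 to 2.16), but 0.730 after thinning, Nfkbie 0.347 (0.109 to 0.848) and Relb 0.465 (0.145 to 1.15).

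The mix of states moved with the library. Cbr2 Tppp3 macrophages made up 3.41% of control and 24.1% of motolimod macrophages. With the states weighted by their share of UMIs in the control library, the ratio was 1.79 for Tnfaip3, 1.74 for Nfkbiz, 1.71 for Ikbke and 1.34 for Nfkbia, the last under the threshold. Ikbke was above 1 in 9 of 9 subsets, the cells with no state included, and at least 1.5-fold higher in 7. In the others, Cbr2 Tppp3 (1.04, 0.793 to 1.39) and Lyve1 Cd209 macrophages (1.47, 0.898 to 2.31), the interval includes 1. The subsets come from the same libraries and are not replicates. Neutrophil RNA, read from S100a8 and S100a9, would bring 1.71% of the Nfkbia and 0.730% of the Tnfaip3 measured in motolimod macrophages.

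**Figure D2:**
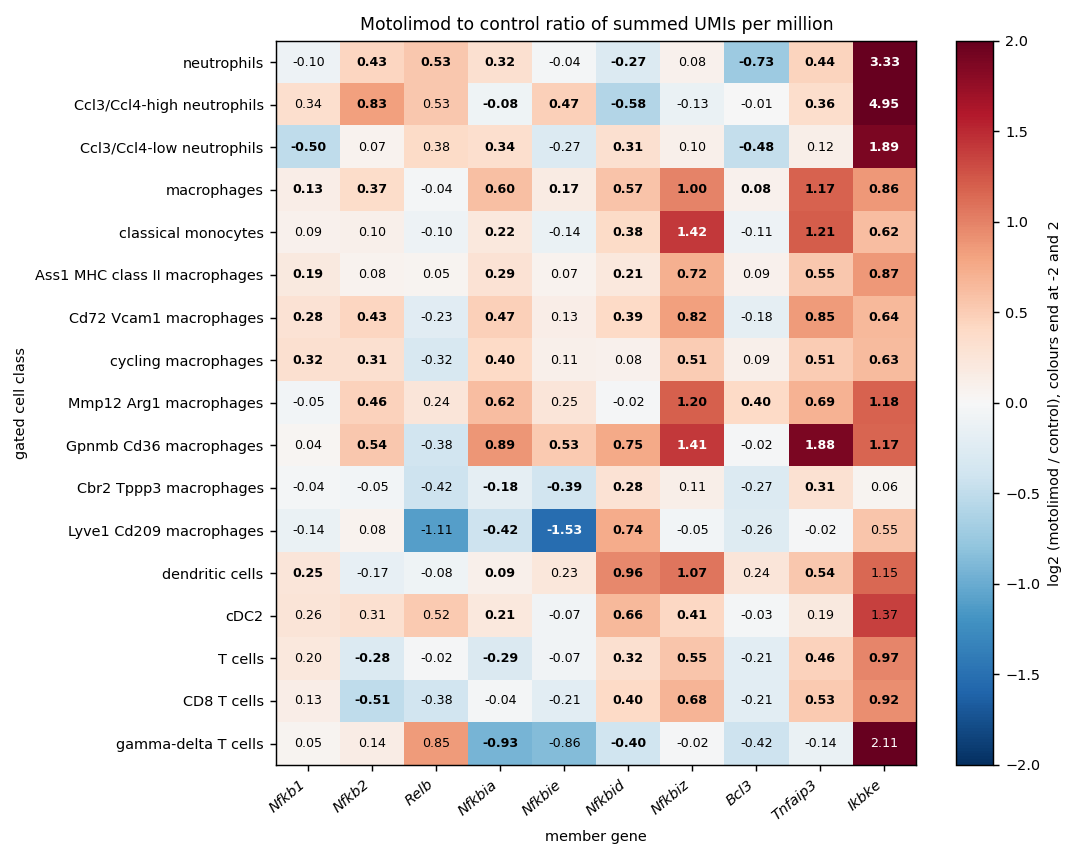
log2 of the motolimod to control ratio of CPM for each member (columns) in the gated classes (rows), with the value in each cell and bold type where the counting interval leaves out a ratio of 1. Tnfaip3 in Gpnmb Cd36 macrophages (1.88) and Ikbke in neutrophils (3.33) are among the highest, and the row of Cbr2 Tppp3 macrophages stays near 0.

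In neutrophils 1 member was higher and 1 lower (background 19.0% higher and 21.3% lower). With the stricter cell filter or after thinning 2 members were higher, and with mixed droplets kept 3 were. None was lower with the stricter filter, with mixed droplets kept or at the control mix of subsets. The background was not computed at these settings. Neutrophils of the libraries were spread differently over Leiden clusters. Clusters 3 and 21 held 258 and 189 of the 502 clustered control neutrophils, and 489 and 300 of the 3032 motolimod ones. Clusters 15, 16 and 24 held 389, 1275 and 579 motolimod neutrophils and 7, 28 and 20 control ones. The ratios below therefore compare neutrophils of unlike makeup, and only the mix of the Ccl3/Ccl4 subsets was held fixed as an alternative. The member that was higher was Ikbke. It had 13 UMIs in the control neutrophils, 9.13 CPM (4.86 to 15.6), and 575 UMIs in the motolimod neutrophils, 91.7 CPM (84.3 to 99.5), a ratio of 10.0 (5.83 to 19.0). After thinning, 0.430% (0.0521 to 1.54) of control cells and 8.58% (7.51 to 9.74) of motolimod cells had an Ikbke UMI, against 2.58% and 14.3% before it. In dendritic cells, of the 4 lineages the one with the least Ikbke, the thinned shares were 0.633% (0.0767 to 2.27) and 1.59% (0.193 to 5.62). The intervals of control neutrophils and control dendritic cells overlap.

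Ikbke was higher in both neutrophil subsets. In the Ccl3/Ccl4-high cells it was at 3.36 CPM (2 UMIs) in the control and 104 CPM (95.1 to 113) in the motolimod library, a ratio of 31.0 (8.53 to 256). In the low cells it was at 13.3 CPM and 49.2 CPM, a ratio of 3.70 (1.95 to 7.76). Macrophage RNA in the neutrophil gate, read from C1qa, C1qb and C1qc, would bring 0.254 CPM of Ikbke in the control and 0.587 CPM in the motolimod library. The markers of Ass1 MHC class II macrophages, antigen presentation genes among them, summed to 8220.1 CPM in control and 1489 CPM in motolimod neutrophils, and their part in the ratio was not tested. The size of the ratio depended on the processing. It was 5.37 with a stricter cell filter, 5.07 with mixed droplets kept and 24.2 after thinning.

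The other members differed less in neutrophils. Bcl3 was lower, at 96.9 CPM in the control and 58.5 CPM in the motolimod library, a ratio of 0.604 (0.495 to 0.740). The Ccl3/Ccl4-high cells made up 44.9% of control and 74.9% of motolimod neutrophils, and at the control mix of the 2 subsets the Bcl3 ratio was 0.773, within the threshold. Nfkbia had a ratio of 1.25 over all neutrophils and 1.07 at the control mix. Ccl3 and Ccl4, which define the subsets, are on the list of inflammatory targets below. They summed to 9612 CPM in control and 25477 CPM in motolimod neutrophils. Values at the control mix therefore cannot separate the makeup of the cells from a change in Ccl3 and Ccl4 within them. Tnfaip3 (1.35, 1.24 to 1.49), Relb (1.45, 1.08 to 1.97) and Nfkb2 (1.34, 1.06 to 1.72) were under the threshold. Relb passed it with the stricter cell filter (1.70) and after thinning (1.64), and both Relb and Tnfaip3 (1.54) passed it with mixed droplets kept. The ratio was 0.829 for Nfkbid, 1.06 (0.983 to 1.14) for Nfkbiz, 0.934 (0.747 to 1.18) for Nfkb1 and 0.975 (0.810 to 1.18) for Nfkbie.

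In the Ccl3/Ccl4-high cells taken alone 2 members were higher and none lower (background 32.7% higher and 13.9% lower), Ikbke and Nfkb2, the latter at 1.77 (1.19 to 2.75). The median log2 ratio of all genes was 0.25 in these cells and at most 0.10 in every other class, and on that scale Nfkb2 was at 0.83. Median-of-ratios scaling divided the ratios in these cells by 1.19, which brought Nfkb2 just under the threshold. In the low cells 1 member was higher, Ikbke, and none lower (background 21.2% higher and 18.1% lower). Nfkbid went opposite ways in the subsets. It went from 384 CPM to 257 CPM in the high cells (0.670, 0.581 to 0.774) and from 327 CPM to 407 CPM in the low cells (1.24, 1.07 to 1.44). Both ratios were within the threshold at the main setting. After median-of-ratios scaling the ratio in the high cells was past it, as lower.

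**Figure D3:**
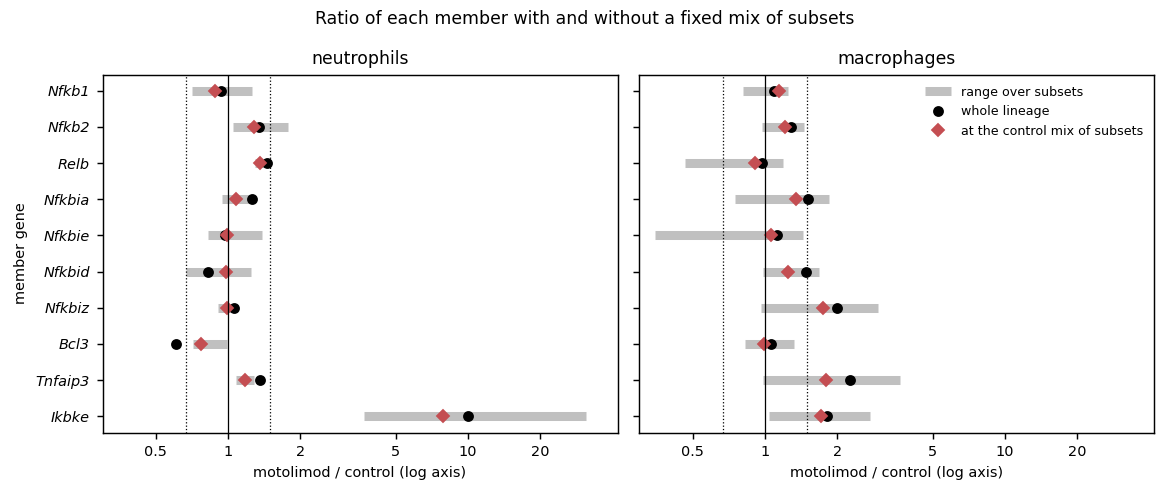
Motolimod to control ratio of each member (log axis) for the whole lineage, with motolimod subsets weighted as in the control, and the range over subsets, in neutrophils and macrophages; dotted lines mark the threshold. Weighting brings Bcl3 in neutrophils to 0.773 and Nfkbia in macrophages to 1.34, and leaves Ikbke at 7.90 and 1.71.

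In dendritic cells 3 of 10 members were higher and none lower, or 2 of the 9 that reached the level of the background genes (background 12.5% higher and 5.96% lower). Nfkbiz was at 103 CPM in the control and 218 CPM in the motolimod library, a ratio of 2.11 (1.83 to 2.43). Nfkbid was at 83.0 CPM and 161 CPM, a ratio of 1.94 (1.65 to 2.28). Ikbke rested on 13 and 11 UMIs, with a ratio of 2.23 (0.903 to 5.39) whose interval includes 1, and it lay under the mean of 10 CPM that background genes had to reach. The makeup of the lineage differed: cDC1 were 28.1% of control and 15.1% of motolimod dendritic cells, cDC2 38.5% and 61.9%, and migratory cells 33.4% and 23.0%. At the control mix the ratios were 1.71 for Nfkbiz, 1.52 for Nfkbid and 1.19 for Ikbke.

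Within cDC2, the dendritic subset with at least 50 cells in both libraries (122 and 78), 2 of 10 members were higher and none lower, or 1 of the 9 that reached the level of the background genes (background 17.1% higher and 7.77% lower). Nfkbid had a ratio of 1.58 (1.29 to 1.93) and the sparsely counted Ikbke one of 2.59 (0.877 to 8.52), while Nfkbiz stayed under the threshold at 1.33 (1.12 to 1.57). Over all dendritic cells the subunit genes Relb (0.943, 0.805 to 1.10) and Nfkb2 (0.890, 0.730 to 1.08) had intervals that include 1. At the control mix, with its larger share of migratory cells, Relb was at 1.26 and Nfkb2 at 1.03. These values rest on the same small motolimod subsets. Within cDC2 Relb was at 1.43 (0.999 to 2.06) and Nfkb2 at 1.24 (0.878 to 1.75). Tnfaip3 stood just under the threshold at 1.46 (1.25 to 1.70), and Nfkb1 (1.19), Nfkbia (1.07), Nfkbie (1.17) and Bcl3 (1.18) were nearer to 1.

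In T cells 1 member was higher and none lower (background 12.6% higher and 6.78% lower). That was Ikbke, at 10.4 CPM in the control and 20.4 CPM in the motolimod library, a ratio of 1.96 (1.26 to 3.09) that ran from 1.60 with mixed droplets kept to 4.07 after thinning. Nfkbiz was at 161 CPM and 235 CPM (1.46, 1.30 to 1.64) and Tnfaip3 at 454 CPM and 622 CPM (1.37, 1.28 to 1.47). Nfkbia was at 1328 CPM and 1089 CPM (0.820, 0.782 to 0.859). Nfkb2 (0.824, 0.688 to 0.985) was also below 1, and the intervals of Nfkb1 (1.15, 0.976 to 1.36), Relb (0.984, 0.758 to 1.27), Nfkbie (0.954, 0.769 to 1.18) and Bcl3 (0.863, 0.699 to 1.06) include 1. After thinning, which weights cells equally, Tnfaip3 had a ratio of 0.975, on the other side of 1, Nfkbid one of 0.797 against 1.25 before it, and Nfkbia one of 0.644. The NK cell markers summed to 293 CPM in control and 1393 CPM in motolimod T cells, and their part in these ratios was not tested. T cells were not weighted to the control mix of subsets, so the part of subset makeup was not tested either.

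The T cell subsets differed in their values. In CD8 T cells (182 and 244) 2 members were higher and none lower (background 13.7% higher and 8.29% lower), Nfkbiz at 1.60 (1.37 to 1.88) and Ikbke at 1.90 (1.04 to 3.54). Tnfaip3 was at 363 CPM and 523 CPM there and Nfkbia at 963 CPM and 935 CPM. In gamma-delta T cells, which carry an alternative antigen receptor, Nfkbia was at 3848 CPM (3581 to 4130.1) without and 2018 CPM (1854 to 2192) with motolimod, a ratio of 0.524 (0.469 to 0.585). There 2 members were lower, Nfkbia and Nfkbie (0.550, 0.268 to 1.11), and 2 higher, Relb and Ikbke, both with intervals that include 1 (background 23.1% higher and 17.3% lower). After thinning the Nfkbie ratio was 1.01, no longer lower. Ikbke rested on 1 and 6 UMIs. Tnfaip3, highest of all classes in these cells, had a ratio of 0.909 (0.777 to 1.06).

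**Figure D4:**
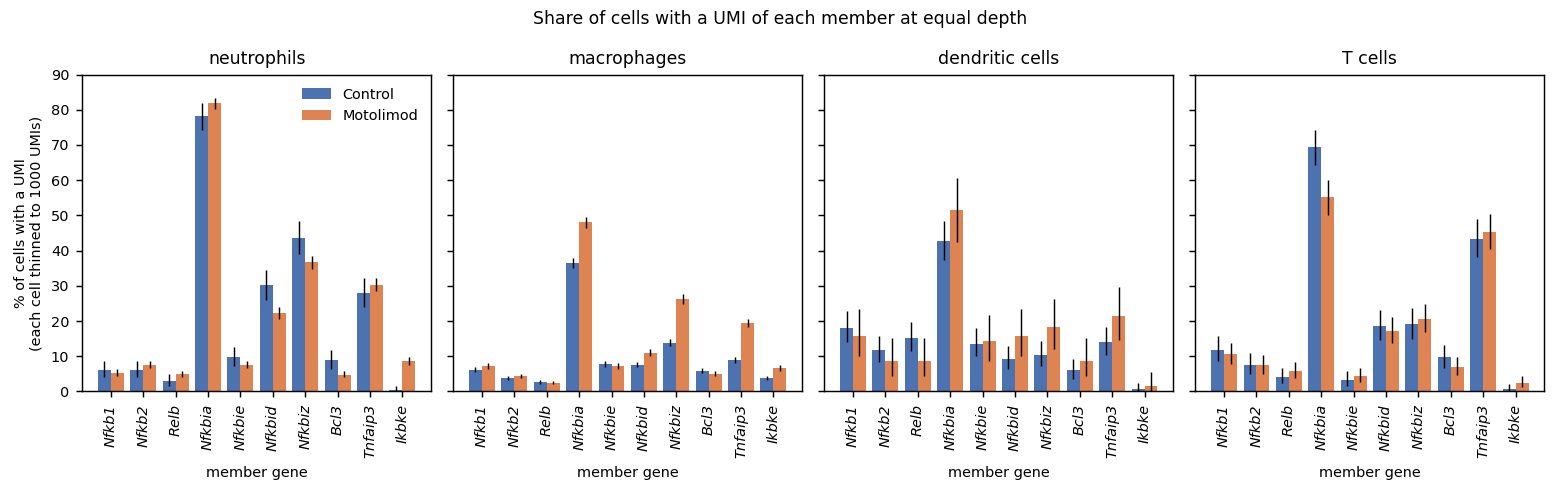
Share of cells with at least 1 UMI of each member after thinning every cell to 1000 UMIs, in 4 lineages, with exact 95% intervals, in the control and motolimod libraries. In macrophages the Nfkbia share is 36.4% and 48.0% and the Nfkbiz share 13.8% and 26.2%, and in T cells the Nfkbia share is 69.5% and 55.1%.

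Epithelial cells served as a class outside the immune lineages. Over 745 control and 75 motolimod cells 1 of 10 members was higher and none lower, or 0 of the 8 that reached the level of the background genes (background 2.27% higher and 1.47% lower). The 1 was Nfkbid, at under 4 CPM in both libraries (4.73, 2.25 to 9.60), and Nfkbia was at 1522 CPM and 1192 CPM, a ratio of 0.783 (0.760 to 0.807).

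Other genes of the pathway came from lists, counted with the same threshold among genes of at least 10 CPM and read beside the backgrounds above. Those were 19.0% higher and 21.3% lower in neutrophils and 8.35% and 5.24% in macrophages. They were 12.5% and 5.96% in dendritic cells and 12.6% and 6.78% in T cells. A list count near the background is not particular to the list. The remaining subunit and inhibitor genes Rela, Rel and Nfkbib were within 1.5-fold in all 4 lineages. In macrophages Rela had a ratio of 1.17 and Rel one of 1.19. Among kinases and adaptors 6 of 17 were higher in neutrophils and none lower. They included Tbk1, the closest relative of Ikbke, at 40.7 CPM and 77.0 CPM (1.89, 1.44 to 2.53). In macrophages 2 of 21 were higher, Tab2 (1.71, 1.63 to 1.80) and Map3k7 (1.58, 1.43 to 1.75), whose products form a kinase complex above the IkB kinases. In dendritic cells 1 of 21 was higher, and in T cells 1 of 19 was higher and 1 lower.

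The other negative regulators gave 5 of 16 higher and 3 lower in neutrophils. Irak3, an inhibitory relative of the receptor kinases, was at 26.0 CPM and 111 CPM (4.28, 3.07 to 6.13), and Tnip1, a partner of the Tnfaip3 product, at 45.6 CPM and 175 CPM (3.83, 2.98 to 5.00). Socs3, a feedback inhibitor of cytokine receptors, was at 618 CPM and 271 CPM (0.439, 0.404 to 0.477). In macrophages 2 of 17 were higher and none lower, Tnip3, another such partner (3.20, 2.97 to 3.46), and Irak3 (1.53, 1.40 to 1.68). In dendritic cells 2 of 16 were higher and 1 lower, and in T cells 2 of 15 were higher. Of the 6 linear ubiquitin and cIAP genes 1 was higher in neutrophils, 2 in macrophages and 1 in T cells, none of them lower, and in dendritic cells none was higher and 1 lower, Sharpin (0.587, 0.453 to 0.754). Xiap was higher in neutrophils (1.91), macrophages (1.92) and T cells (1.61), and Birc3 in macrophages (1.59).

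Upstream, 2 of 5 receptor genes were higher in neutrophils, Tnfrsf1b (2.22, 1.99 to 2.49) and Tlr2 (1.68, 1.44 to 1.97). In macrophages 4 of 9 were, including Tnfrsf1b (2.08, 1.99 to 2.17) and Tlr7, an endosomal RNA sensor gene (2.05, 1.89 to 2.23). In dendritic cells 3 of 7 were higher and 1 lower, and in T cells none of 2 passed the threshold. The ligand gene Tnf was past it in all 4 lineages. It was at 159 CPM and 910.3 CPM in neutrophils (5.71, 5.00 to 6.55), 61.1 CPM and 142 CPM in macrophages (2.32, 2.23 to 2.42), 38.5 CPM and 139 CPM in dendritic cells (3.60, 2.93 to 4.42) and 45.6 CPM and 70.4 CPM in T cells (1.54, 1.24 to 1.92). Il1b was within 1.5-fold in neutrophils (0.839) and macrophages (1.05).

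Downstream, 11 of 20 inflammatory targets were higher in neutrophils and 1 lower; Ccl3 and Ccl4, which define the neutrophil subsets, are on that list. Sod2, the mitochondrial superoxide dismutase gene, was at 196 CPM and 929 CPM (4.74, 4.21 to 5.37), and Cd83 had a ratio of 0.285. In macrophages 11 of 20 were higher and none lower, led by the chemokine genes Cxcl3 (4.10, 3.97 to 4.24) and Cxcl2, at 811 CPM and 2840.2 CPM. The median log2 ratio of this list in macrophages was 0.63, against 0.04 for all genes. In dendritic cells 10 of 21 were higher and 1 lower, Il12b, a cytokine subunit gene, at 168 CPM and 6.71 CPM (0.0400, 0.0199 to 0.0720). In T cells 3 of 19 were higher and 1 lower. In Cbr2 Tppp3 macrophages 3 of 20 were higher and 3 lower (background 13.5% higher and 9.37% lower).

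Immediate early genes, which respond within minutes to many stimuli and to tissue dissociation, also differed between the libraries. In macrophages 4 of 8 were higher and none lower, with Egr1 at 55.0 CPM and 178 CPM (3.24, 3.11 to 3.38). In dendritic cells 7 of 8 were higher, Egr1 among them (5.77, 5.00 to 6.67), and in T cells 3 of 8. In neutrophils 1 of 8 was higher and 4 lower, with Fos at 1879 CPM and 947 CPM (0.504, 0.481 to 0.528). In Gpnmb Cd36 macrophages 6 of 8 were higher (background 14.8% higher and 10.3% lower). The part of these genes in the members' ratios was not tested.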

How the data were processed

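Single cells of CD45-enriched mouse tumours were measured by droplet 3′ RNA sequencing in 1 control and 1 motolimod library. The authors deposited raw UMI counts per gene and barcode. Cell Ranger 7.1.0 is named per the file headers and Cell Ranger 5.0.1 per the submitters' processing notes, with build mm10. The control file held 8099 barcodes and 127609378 UMIs, the motolimod file 10037 and 62057685. Barcodes were filtered (300 genes, 800 UMIs, 10% mitochondrial UMIs) and assigned by marker sets in UMIs per 10000. No doublet caller was run, and barcodes that passed at least 2 gates were left out, with the exceptions named above.

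UMIs were summed per class and library. Levels in CPM have exact Poisson intervals, ratios exact conditional binomial intervals, and shares of cells exact Clopper-Pearson intervals, all at 95%. Intervals of ratios were run on simulated Poisson counts, the model they assume, so that check covers counting error only. With 1 library per group there was no test of a difference between groups. Classes under 50 cells gave no ratio of their own, but cDC1 and migratory cells entered the fixed mix of dendritic cells. The named genes were the 10 members in every class, up to 4 genes per list and lineage with the largest log2 ratio, 8 genes most like the members together and 3 most like each member. Members and gene lists were chosen with earlier results of these data known. Lists were counted at the main settings only. Alternatives were a stricter cell filter (1000 genes, 2000 UMIs, 5%), median-of-ratios scaling, means over cells, thinning, mixed droplets kept, Leiden clusters made without the members, and background genes of at least 1 CPM. A fixed mix of subsets (not for T cells), leaving out shared barcodes and a neutrophil gate of 3 markers were added after seeing the data. Promoters are from RefSeq (GRCm38.p6). Python 3.11.15, numpy 2.4.6, scipy 1.17.1, pandas 2.3.3, scanpy 1.11.5 and matplotlib 3.10.9 were used.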

Additional observations from a re-analysis of the deposited data

Results flagged for a closer look

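Nfkbia had opposite directions in 2 classes under the same contrast. The motolimod to control ratio was 1.85 (1.76 to 1.94) in Gpnmb Cd36 macrophages and 0.524 (0.469 to 0.585) in gamma-delta T cells. The difference was not tested, since each class has 1 library per group.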

How the results depend on the processing

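No paired analysis was possible because each group has 1 library, so the groups share fewer than 2 replicate numbers. In neutrophils the count of members at least 1.5-fold higher was 2 with the stricter cell filter and after thinning to 1000 UMIs, and 3 with mixed droplets kept, against 1. Relb (1.70 and 1.64) and, with mixed droplets, Tnfaip3 (1.54) joined Ikbke. The count of members lower was 0 with the stricter filter, with mixed droplets kept and at the control mix of subsets, where Bcl3 was at 0.704, 0.701 and 0.773. In T cells 2 members were lower after thinning, Nfkbia (0.644) and Bcl3 (0.660), against 0. In macrophages the counts ran from 3 to 4 higher, with Nfkbia between 1.34 and 1.52, Tnfaip3 between 1.79 and 2.43, Nfkbiz between 1.74 and 2.10 and Ikbke between 1.71 and 1.92. With means over cells and with mixed droplets kept, Nfkbia was at 1.49 and Nfkbid was past the threshold in its place. In dendritic cells the counts ran from 2 at the control mix to 4 after thinning. Ikbke in neutrophils stayed past the threshold in every setting run, from 5.07 to 24.2. After thinning, 2 called ratios crossed 1: Nfkbid in Lyve1 Cd209 macrophages was at 0.730 and Nfkbie in gamma-delta T cells at 1.01; the cause was not tested. Of the single ratios, 102 left their counting interval after thinning and 82 stayed in it, while 2 left it and 188 stayed without shared barcodes. With background genes of at least 1 CPM the higher share was 21.8% in neutrophils, 10.5% in macrophages, 18.8% in dendritic cells and 21.0% in T cells. No background was computed at the other settings. Changes in the counts of members there cannot be read as particular to the members. The fixed mix, shared barcodes and 3-marker gate were chosen after seeing the data. Depth limits the Ikbke ratios, which rest in the control on 13 UMIs in neutrophils, 2 in the Ccl3/Ccl4-high ones, 13 in dendritic cells and 1 in gamma-delta T cells.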
